A study of Mus musculus with 15 samples.

Results

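Cytosolic ribosomal RNA (rRNA) was examined in low-input ribosome profiling libraries from mouse eggs and embryos. It is held in the 3 rows of the count table whose identifier starts with rRNA_, named for 28S, 18S and 5.8S, of 55490 rows in all. The libraries came from donor females of the B6D2F1 strain that were heterozygous (Het) or knockout (KO) for Eif4e1b, which encodes a cap-binding translation factor of the oocyte. Every donor, control or knockout, also carried Rpl22 with an HA tag, and fragments were recovered by digesting the lysate with 100 units of RNase I for 45 min and pulling down the tagged ribosomes for 4 h. Each library pooled about 200 M2 eggs or PN5 zygotes, or about 100 early 2-cell embryos, and was amplified over 22 PCR cycles. The 15 libraries formed 6 groups: M2 Het (n = 2), M2 KO (n = 2), PN5 Het (n = 3), PN5 KO (n = 3), early 2-cell Het (n = 3) and early 2-cell KO (n = 2). The labels give the genotype of the donor female, not of the embryo, and do not say whether replicates came from separate females, so every p-value measures the spread between these libraries, which may be technical.

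The 28S and 5.8S rRNAs, together with 5S rRNA, form the RNA core of the large ribosomal subunit, which holds the peptidyl transferase centre. The 18S rRNA forms that of the small subunit, which reads the mRNA. The 28S, 18S and 5.8S rRNAs are cut from 1 precursor made by RNA polymerase I in the nucleolus, whereas 5S is made by RNA polymerase III. Rpl22, the tagged bait, is a protein of the large subunit. RNase I cuts exposed rRNA as well as unprotected mRNA, so rRNA fragments are a usual and often dominant by-product of ribosome profiling. The full-grown oocyte stores ribosomes for the embryo, and its nucleolus makes little new rRNA until embryonic transcription resumes.

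Library totals ran from 93222 counts in early 2-cell Het replicate 2 to 1201146 in PN5 Het replicate 2, and the early 2-cell libraries were the shallowest. Protein-coding rows took 0.696% to 5.10% of a library. Of 10 egg markers, 4 had any count, 111 counts in all. Nlrp5, a maternal-effect gene, had 69 counts, and the zona pellucida genes Zp1, Zp2 and Zp3 had 0, so the labelled cell type could be checked only weakly against markers at this depth. Eif4e1b itself had 0 counts in every library, Het libraries included, which gives no check of the genotype labels. A limit of 3 counts over all libraries, KO included, is 0.363 CPM (counts scaled to the library total), and in the shallowest library it is 32.2. The library total is mostly rRNA, so the limit among mRNA reads is far higher and does not show a low mRNA level. Of 15 cumulus and granulosa cell markers 6 had counts, and their summed share ran from 0% to 0.0420%. The steroidogenic enzyme Cyp11a1 held 561 of their 689 counts. None of 9 blood and sperm markers had a count. The replicates of a group differed well beyond counting noise, with a chi-square per degree of freedom of 21.7 to 259, so no library was counted as a repeat of another.

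PN5 KO replicate 3 stood apart in its rRNA. It held 55.5% of its counts in 28S and 3.26% in 5.8S, against 65.0% to 80.4% and 7.51% to 13.6% in the other 14 libraries. Its mitochondrial rRNA share was 36.0%, against 5.53% to 18.2% elsewhere, and the ratio of the large mitochondrial rRNA mt-Rnr2 to the small one mt-Rnr1 was 35.6, against 3.87 to 14.4 elsewhere. Cumulus and granulosa markers summed to 355 counts in it and to 172 in M2 Het replicate 1, and to at most 55 in the others. As shares of library counts the first 2 sums were 0.0398% and 0.0420%, so PN5 KO replicate 3 was not the highest by share. What part these play in its rRNA values was not tested. Its group's means are given with and without it.

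**Figure D1:**
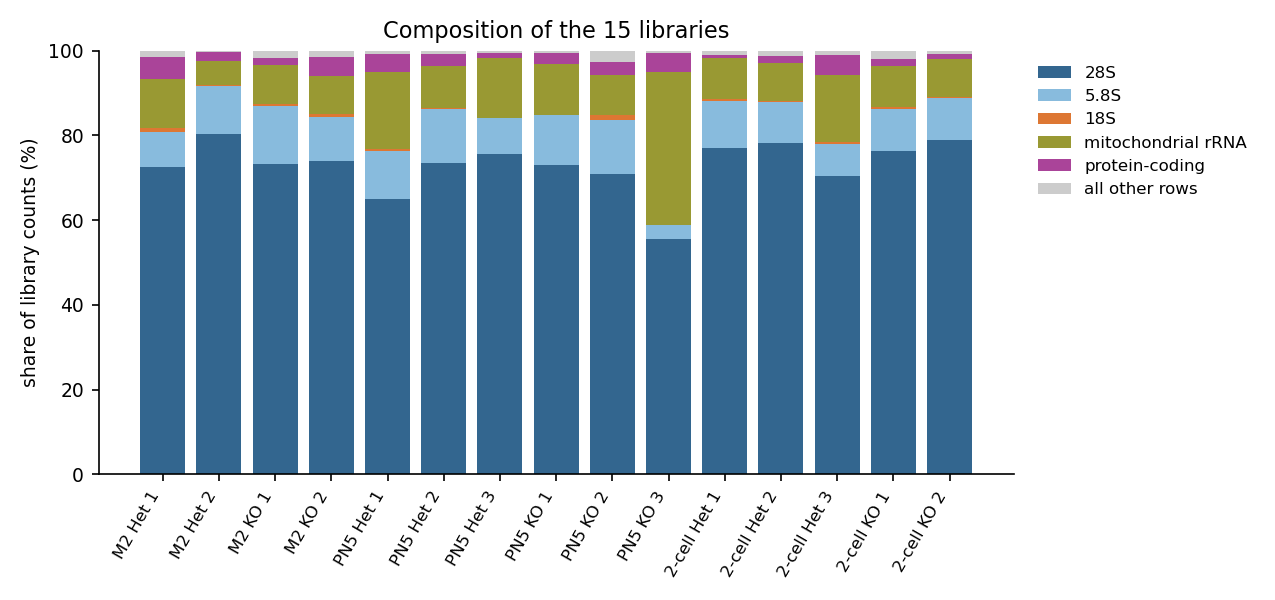
Stacked bars give the share of each library's counts (percent, from 0 to 100) in the 28S, 5.8S and 18S rows, the mitochondrial rRNA rows, the protein-coding rows and all other rows. 28S is the largest part of every bar, and PN5 KO replicate 3 has a mitochondrial rRNA share of 36.0%.

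The large-subunit rRNA 28S was the largest row of every library. In M2 eggs it took 72.5% and 80.4% of the counts in the Het libraries and 73.4% and 74.0% in the KO libraries. In PN5 zygotes it took 65.0%, 73.4% and 75.7% in Het and 73.0%, 70.9% and 55.5% in KO. The PN5 KO value of replicate 3 was the lowest of the series, and the other PN5 libraries of both genotypes overlapped. In early 2-cell embryos 28S took 77.2%, 78.3% and 70.5% in Het and 76.2% and 79.0% in KO. The genotypes overlapped at every stage. In pooled eggs and embryos, a change in the cells that a library holds and a change in RNA per cell cannot be told apart.

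The mean 28S share was 76.5% ± 5.57 (SD, n = 2) for M2 Het and 73.7% ± 0.465 (SD, n = 2) for M2 KO. PN5 Het averaged 71.4% ± 5.63 (SD, n = 3). PN5 KO averaged 66.5% ± 9.56 (SD, n = 3), or 72.0% ± 1.48 (SD, n = 2) without replicate 3. The early 2-cell groups averaged 75.3% ± 4.20 (SD, n = 3) in Het and 77.6% ± 1.97 (SD, n = 2) in KO. From lowest to highest library the 28S share moved by only 1.45-fold. A share this large is bounded from above by 100%, so it has little room to rise.

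The 5.8S rRNA, which pairs with 28S in the large subunit, was the next cytosolic rRNA row by counts. It took 8.26% and 11.3% of counts in M2 Het and 13.6% and 10.3% in M2 KO. In PN5 zygotes it took 11.3%, 12.9% and 8.31% in Het and 11.7%, 12.7% and 3.26% in KO. In early 2-cell embryos it took 10.9%, 9.64% and 7.51% in Het and 10.1% and 9.76% in KO. PN5 KO replicate 3 was again the lowest, and the Het and KO values overlapped at each stage. PN5 KO averaged 9.23% ± 5.19 (SD, n = 3) with that library and 12.2% ± 0.693 (SD, n = 2) without it.

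Relative to 28S, the 5.8S row held 0.114 and 0.141 counts per 28S count in M2 Het and 0.186 and 0.139 in M2 KO. The PN5 values were 0.174, 0.175 and 0.110 in Het and 0.161, 0.179 and 0.0587 in KO. The early 2-cell values were 0.142, 0.123 and 0.107 in Het and 0.133 and 0.124 in KO. Leaving aside PN5 KO replicate 3, the 2 large-subunit rows therefore kept to a ratio between 0.107 and 0.186.

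The third large-subunit rRNA, 5S, was represented by rows of single gene copies. Of 182 rows named for 5S or for the rRNA locus, 51 had a count, all of them 5S copies, and together they held 601 counts. Their sum ran from 0.00199% of a library in PN5 Het replicate 3 to 0.0311% in early 2-cell Het replicate 2. n-R5s2 held 98 counts, n-R5s115 held 68 and n-R5s185 held 48. The 5.8S row exceeded the sum of the 5S rows by 262 to 4172 times. These copies are near-identical, so reads can be split or lost among them by the counting, and the 5S values are uncertain for that reason.

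The small-subunit rRNA 18S was a minor row in every library. In M2 eggs it took 0.992% and 0.165% of counts in Het and 0.430% and 0.827% in KO. In PN5 zygotes it took 0.546%, 0.198% and 0.10% in Het and 0.0988%, 1.14% and 0.105% in KO. Each of these 4 groups held 1 library at 0.546% or more and the rest at 0.430% or less, and both the lowest and the highest value of the series were PN5 KO libraries. In early 2-cell embryos it took 0.486%, 0.261% and 0.505% in Het and 0.454% and 0.289% in KO. These 5 values lay within the range of the eggs and zygotes, and the KO values lay within that of Het.

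The 18S row rested on 243 to 8817 counts per library. The lowest share, in PN5 KO replicate 1, had a 95% Wilson interval of 0.0912% to 0.107%, and the highest, in PN5 KO replicate 2, one of 1.11% to 1.17%. Such intervals cover counting error only, because reads amplified by PCR with no molecular identifiers may be copies of 1 molecule. The difference between these replicates of 1 group was thus far outside counting error. The group mean was 0.579% ± 0.585 (SD, n = 2) for M2 Het and 0.629% ± 0.280 (SD, n = 2) for M2 KO. PN5 Het averaged 0.281% ± 0.234 (SD, n = 3). PN5 KO averaged 0.448% ± 0.600 (SD, n = 3). The early 2-cell mean was 0.417% ± 0.136 (SD, n = 3) for Het embryos and 0.371% ± 0.117 (SD, n = 2) for KO. In M2 Het, PN5 Het and PN5 KO the SD was close to the mean or above it. Without replicate 3, PN5 KO averaged 0.620% ± 0.737 (SD, n = 2).

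**Figure D2:**
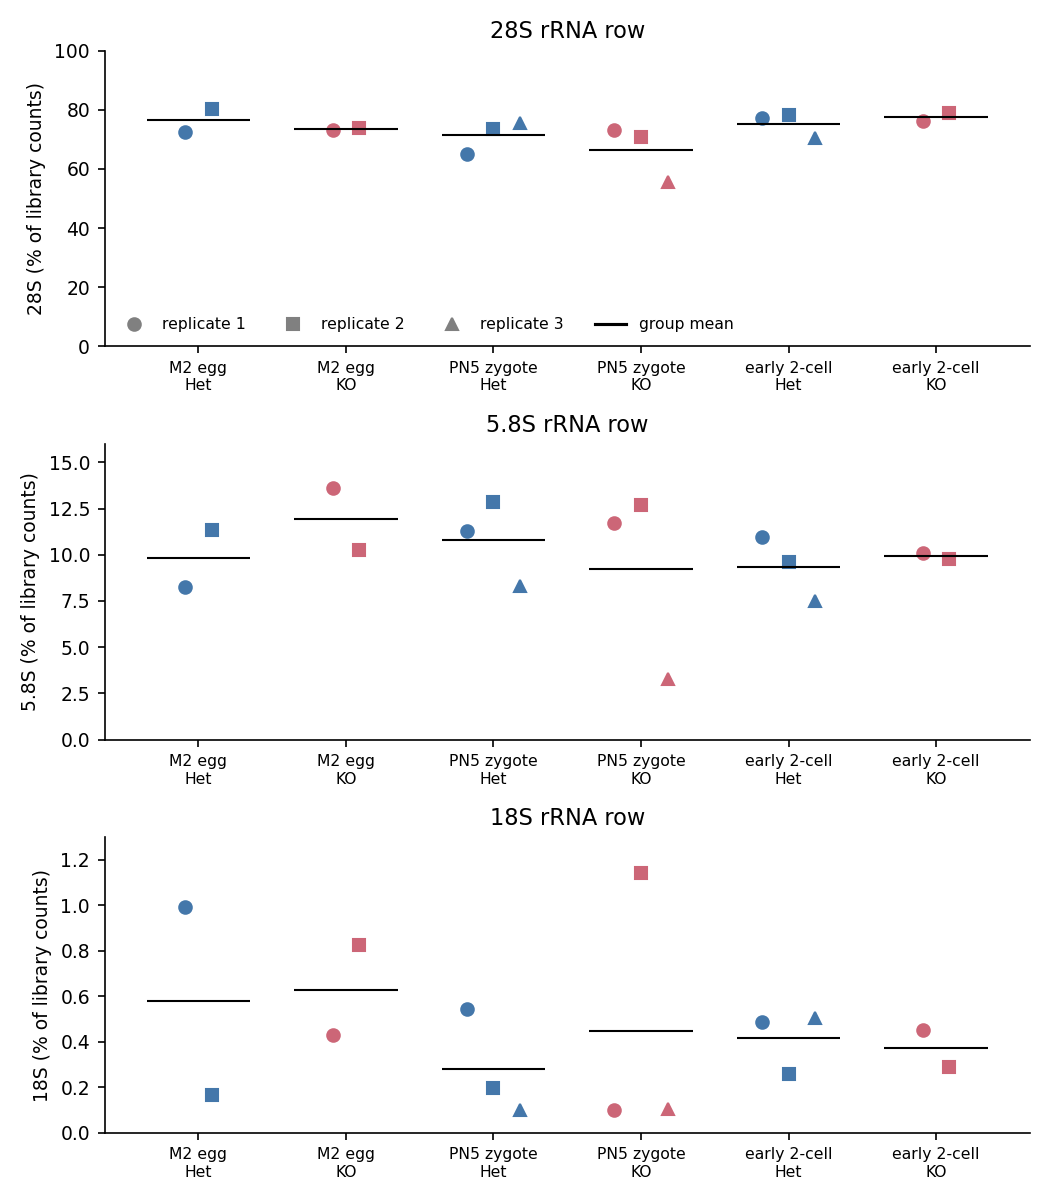
Points give the share of library counts (percent, linear axes from 0) in the 28S, 5.8S and 18S rows for each of the 15 libraries, with marker shape for the replicate, blue for Het, red for KO and a line at each group mean. The 28S shares lie between 55.5% and 80.4%, whereas the 18S shares run from 0.0988% to 1.14% within PN5 KO alone.

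The ratio of 28S to 18S counts sets reads of a large-subunit rRNA against reads of a small-subunit one, in a pull-down through the large subunit. It is a ratio of read counts, not of molecules or subunits, because the reads are of rRNA fragments left by RNase I. The sources used here give neither the way rRNA reads were counted nor the lengths of the counted sequences. Whether reads of 18S were also counted in other rows was not examined. The ratio is used only to set libraries side by side. In M2 eggs the ratio was 73.1 and 488 in Het and 170 and 89.5 in KO. In PN5 zygotes it was 119, 370 and 755 in Het and 739, 62.2 and 530 in KO. In early 2-cell embryos it was 159, 300.3 and 139.5 in Het and 168 and 273 in KO. The libraries thus spanned 12.1-fold, and PN5 zygotes held both ends of that range. The counting interval (95%) was 60.4 to 64.0 for the lowest ratio and 703 to 812 for the highest. The 5 early 2-cell ratios lay in the middle, between 139.5 and 300.3.

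Knockout and control did not separate in this ratio at any stage. The geometric mean of the ratio was 189 for M2 Het against 123 for M2 KO. It was 322 for PN5 Het against 290 for PN5 KO, or 214 for PN5 KO without replicate 3, and at the early 2-cell stage 188 for Het against 214 for KO. Over the stages, KO was lower by a log2 difference of -0.19, or 0.876-fold, with p = 0.771 in a two-sided exact permutation test that permutes genotypes within stages. The sign rests on single libraries, for it was 0.26 without M2 Het replicate 2 and -0.65 without M2 Het replicate 1. The log2 difference was -0.61 in M2 eggs with exact p = 1, -0.15 in PN5 zygotes with exact p = 0.9 and 0.19 in early 2-cell embryos with exact p = 0.7. Taken alone, no stage can pass 0.05 in this test, for the smallest possible p is 0.333 in M2 eggs and 0.1 at the other stages. The KO effect differed between PN5 and M2 by 0.46 on the log2 scale (exact p = 0.817) and between early 2-cell and PN5 by 0.34 (exact p = 0.77).

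The stages did not separate either. Within genotypes, the 28S to 18S ratio was 2.00-fold as high in PN5 zygotes as in M2 eggs (exact permutation p = 0.34). It was 0.657-fold as high in early 2-cell embryos as in PN5 zygotes (exact p = 0.485), and 1.31-fold as high as in M2 eggs (exact p = 0.55). In order of their geometric means the groups ran M2 KO, early 2-cell Het, M2 Het, early 2-cell KO, PN5 KO and PN5 Het, and each pair of neighbours in that order overlapped. Without replicate 3, PN5 KO stood level with early 2-cell KO at 214.

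**Figure D3:**
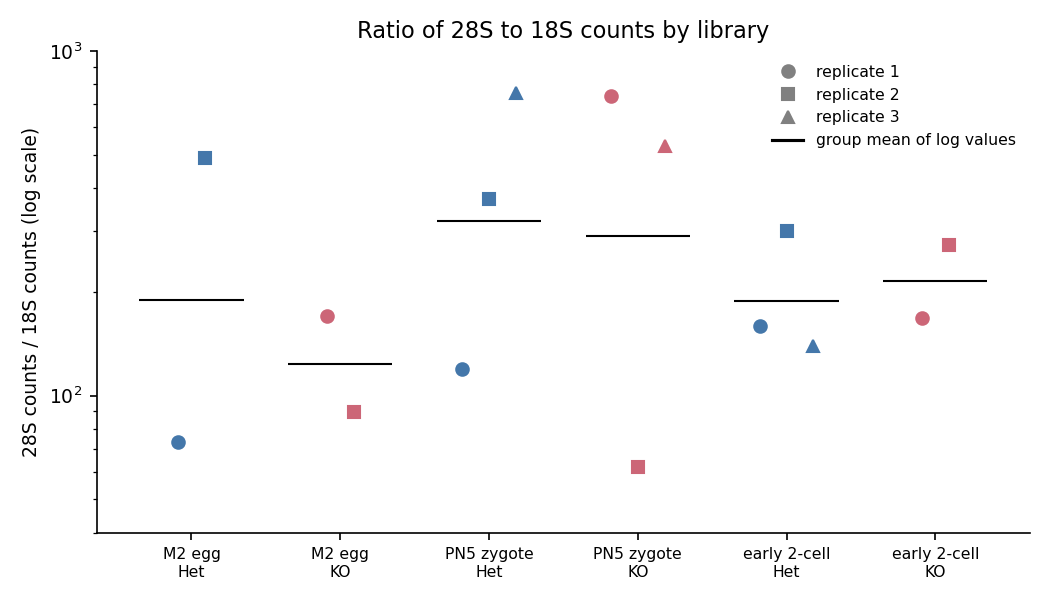
The ratio of 28S to 18S counts is plotted for each library on a log axis, by stage and genotype (blue for Het, red for KO, marker shape for the replicate), with a line at each group's mean of log values. The ratio runs from 62.2 to 755, with both values in PN5 zygotes, and Het and KO overlap at every stage.

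The separate rows gave the same picture. For KO against Het within stages, the 28S share differed by -0.04 on the log2 scale (exact permutation p = 0.499), the 18S share by 0.15 (exact p = 0.811) and the ratio of 5.8S to 28S by 0.02 (exact p = 0.922). Between stages, the 28S share was 1.11-fold as high in early 2-cell embryos as in PN5 zygotes, with exact p = 0.095 over 200 arrangements. That p was the smallest of the 45 permutation tests made, over 5 measures and 9 comparisons. It became 1 after Benjamini-Hochberg adjustment, as did each of the others. No test between stages could pass that adjustment by itself, for the smallest possible p of these tests was 0.005 to 0.0167. Without PN5 KO replicate 3 the log2 difference between these stages was 0.09 in place of 0.16 (exact p = 0.1). PN5 zygotes held 0.914-fold the 28S share of M2 eggs (exact p = 0.2), a log2 difference of -0.13 that was -0.07 without PN5 KO replicate 3, and the 18S share was 0.457-fold that of M2 eggs (exact p = 0.26). These tests do not show that the groups are alike: the 18S share in particular varied so much between replicates that a change of 2.00-fold in the 28S to 18S ratio did not stand out from them.

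**Figure D4:**
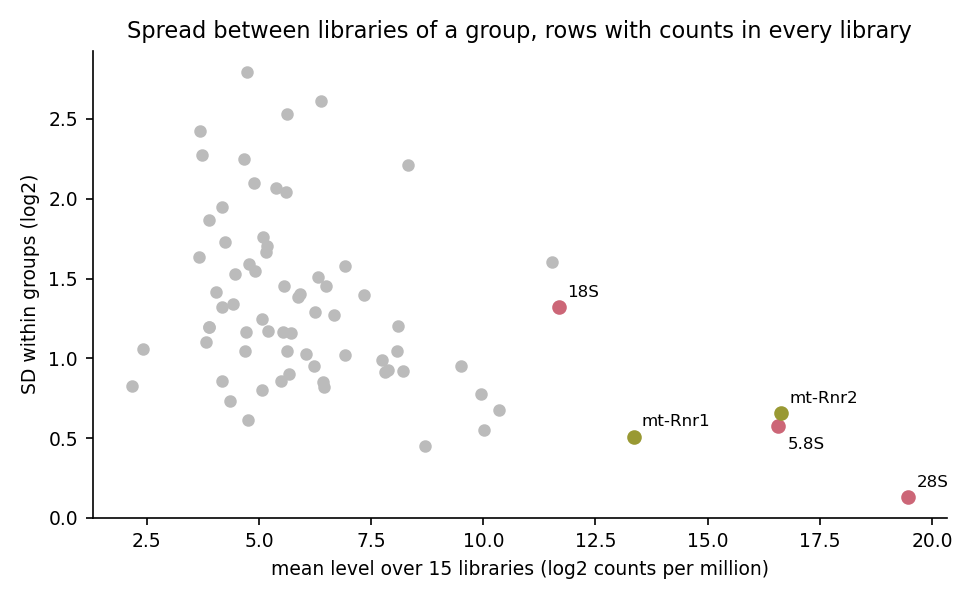
For the 72 rows with a count in every library, the SD between libraries of a group (log2 share, pooled over 6 groups) is plotted against the mean level in log2 CPM. The 28S row has the lowest SD, 0.13, on this scale, which is compressed for a row that holds most of a library, and the 18S row one of 1.32, above the median of 1.20.

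The 3 rows differed in how much they varied between libraries of a group. Among the 72 rows with a count in every library, the pooled within-group SD of the log2 share was 0.13 for 28S, the lowest of all. A row that holds most of a library has a log2 share that is compressed by construction, so its SD was also taken on the log2 odds (the share over the rest of the library), added after seeing the data. There it was 0.40, still the lowest of the 72, with 0.62 for 5.8S and 1.33 for 18S. On log2 shares it was 0.57 for 5.8S, the fifth lowest, and 1.32 for 18S, which ranked 41 from the lowest. The median over the 72 rows was 1.20. The mitochondrial rRNAs mt-Rnr1 and mt-Rnr2 had SDs of 0.51 and 0.66. Most of the other rows had far fewer counts, and counting error adds to their SD. The 18S row had at least 243 counts in a library and still varied more than the median row.

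As a description over 15 libraries, the log2 shares of 28S and 5.8S correlated with Pearson r = 0.69, but the Spearman rho was 0.12, with PN5 KO replicate 3 the lowest library in both. The 18S share correlated with 28S at r = 0.10 and with 5.8S at r = 0.32. Shares of 1 library sum to a fixed total, and the points share their library and its depth. Of the other rows with a count in every library, those most like 28S by Pearson r were 5.8S, Gm25848 (r = 0.63, rho = 0.31), a row with no role given here, and Rpph1 (r = 0.44, rho = -0.075), the RNA of ribonuclease P. Those most like 5.8S were 28S, Rpph1 (r = 0.63, rho = 0.14) and CT010467.1 (r = 0.50, rho = 0.42). By rank, then, 28S and 5.8S had little in common with Rpph1. Those most like 18S were Jmjd1c, a JmjC-domain gene (r = 0.68, rho = 0.75), Rps14, a small-subunit ribosomal protein gene (r = 0.64, rho = 0.75), and Rpph1 (r = 0.64, rho = 0.66). The Jmjd1c row held 1 to 55 counts per library, the Rps14 row 1 to 138 and the Rpph1 row 1 to 202, so counting error is large in them. mt-Rnr2 was the row least like 28S (r = -0.91, rho = -0.77) and 5.8S (r = -0.79, rho = -0.40), and Metap2, a methionine aminopeptidase gene, the row least like 18S (r = -0.44, rho = -0.31).

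In a fit over the whole table (edgeR's quasi-likelihood test with TMM scaling), 495 rows were tested, the 3 rRNA rows among them. In each of the 9 comparisons 0 rows passed a Benjamini-Hochberg adjusted p of 0.05, a background of 0%, and so none of the 3 rRNA rows did. Unadjusted p was under 0.05 for 6, 35 and 25 rows for KO against Het in M2, PN5 and early 2-cell samples. It was under 0.05 for 17 and 97 rows for PN5 against M2 and early 2-cell against PN5 in Het, and for 21 and 43 rows in KO. The differences of the KO effect gave 26 and 25 such rows. The DESeq2 Wald test called 2, 2 and 4 rows for KO against Het at the successive stages, 4 and 40 for the stage comparisons in Het, 1 and 13 in KO and 0 for either difference of the KO effect. limma-voom called 11 rows for early 2-cell against PN5 in Het and 0 elsewhere. None of these calls was an rRNA row.

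On the TMM scale the fitted log2 fold change of 28S for KO against Het was -0.07 (SE 0.87) in M2 eggs, -0.82 (SE 0.71) in PN5 zygotes and -0.26 (SE 0.80) in early 2-cell embryos. For 5.8S it was 0.28 (SE 1.00), -0.81 (SE 0.82) and -0.30 (SE 0.92). For 18S it was 0.66 (SE 1.03), 0.04 (SE 0.84) and -0.48 (SE 0.95). Each of these 9 values had an adjusted p of 1 in edgeR's quasi-likelihood test. TMM factors ran from 0.390 to 2.87, so the 28S row, whose share moved little, moves on this scale with the factor. Its SE there was 0.71 to 0.87. With library totals only, the SE of 28S for KO against Het was 0.25 in M2, 0.21 at PN5 and 0.23 at the early 2-cell stage.

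Both mitochondrial rRNAs were tested beside the cytosolic rows. They are made in the mitochondrion and belong to ribosomes that hold no Rpl22. Together they took between 5.53% and 36.0% of a library, and mt-Rnr2 alone held 1034344 counts over all libraries, against 90644 for mt-Rnr1. Per base of annotated length (1582 for mt-Rnr2 and 955 for mt-Rnr1), mt-Rnr2 exceeded mt-Rnr1 by 2.34 to 21.5 times. The 28S to 18S ratio showed no clear relation to the mitochondrial rRNA share over 15 libraries (Pearson r = 0.23, permutation p = 0.450; Spearman rho = 0.10, permutation p = 0.715), and within the 6 PN5 libraries r was 0.25 (exact permutation p = 0.7).

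The 28S to 18S ratio was also set against depth and against the protein-coding share. With the log10 library total it correlated at r = 0.21 (permutation p = 0.454; rho = 0.18, permutation p = 0.522), and at r = 0.43 within PN5 (exact permutation p = 0.404). With the protein-coding share it correlated at r = -0.40 (permutation p = 0.139; rho = -0.41, permutation p = 0.127), and at r = -0.37 within PN5 (exact permutation p = 0.458). Depth and stage move together across these libraries. Over the 4 relations computed, the adjusted p for Pearson's r was 0.454 for depth, 0.454 for the mitochondrial share and 0.279 for the protein-coding share. Without the 2 libraries farthest from the median on the x axis, r was 0.27, 0.05 and -0.22 for depth, the mitochondrial share and the protein-coding share.

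The fourth relation, chosen after seeing the data, set the 18S share against noncoding RNAs that act in pre-rRNA processing. Of 21 rows for such RNAs 11 had counts, 4599 in all. Rmrp, the RNA of ribonuclease MRP, which cuts the precursor, held 1620 and 1094 counts in its 2 rows. Rnu3a, the U3 small nucleolar RNA needed to release 18S, held 1387 in its row with most counts. M2 Het replicate 1, M2 KO replicate 2, PN5 Het replicate 1 and PN5 KO replicate 2 had 856, 1219, 947 and 717 counts in these RNAs, or 0.209%, 0.114%, 0.106% and 0.179%. Each of them also had the highest 18S share of its group. In the early 2-cell groups the libraries did not line up in this way: Het replicate 3 had the highest 18S share, 0.505%, and the lowest share of these RNAs, 0.00878%, and in KO replicate 1 was higher in 18S and replicate 2 in these RNAs. Those libraries held only 14, 14 and 15 counts in these RNAs in Het and 19 and 38 in KO, so counting error is large in this order. The remaining 11 libraries held 3 to 261 counts, or 0.000399% to 0.0393%.

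Over 15 libraries the log2 shares correlated with r = 0.61 (permutation p = 0.0135, adjusted p = 0.054) and rho = 0.55 (permutation p = 0.0378, adjusted p = 0.151), which did not pass after adjustment. Within the 6 PN5 libraries r was 0.66 (exact permutation p = 0.14), and over the 10 M2 and PN5 libraries it was 0.70 (unadjusted permutation p = 0.0189; rho = 0.70, permutation p = 0.0311). The set of 10 was not planned and leaves out the early 2-cell libraries, which did not line up. Its p-values therefore give no support to the relation. Without PN5 Het replicate 3 and M2 Het replicate 1, the farthest from the median on the x axis, r over the other 13 was 0.39 (permutation p = 0.188). The relation was thus weaker and did not stand out without those 2. The protein-coding share of the same 4 libraries ran from 2.94% to 5.10%, and its part in the relation was not tested.

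**Figure D5:**
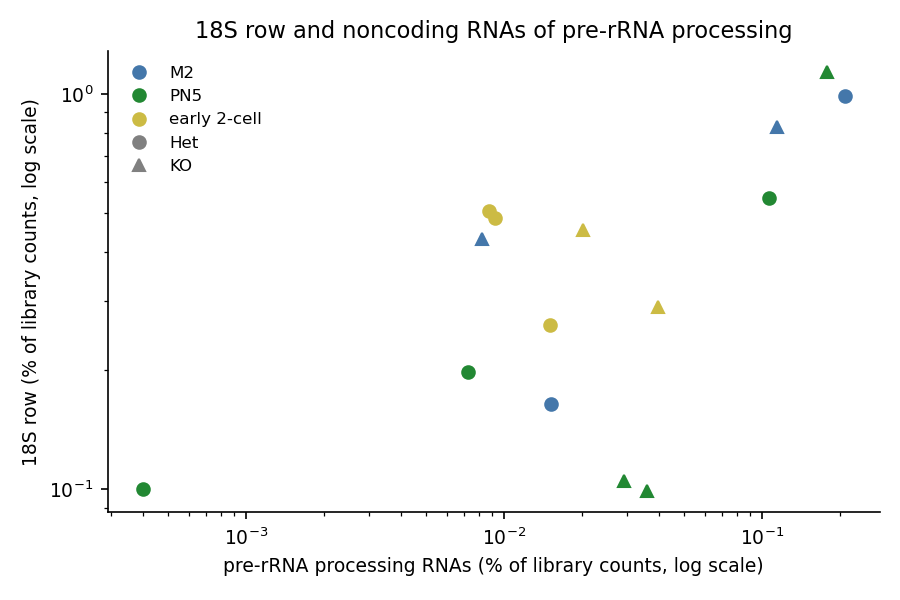
Each point is a library, with the share of counts in noncoding RNAs of pre-rRNA processing (percent, log axis) against the share in the 18S row (percent, log axis), coloured by stage and with circles for Het and triangles for KO. The 4 libraries at upper right hold 0.106% to 0.209% of counts in the processing RNAs and 0.546% to 1.14% in 18S.

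Genes that make and assemble rRNA were sparsely covered. Of the 5 tested rows for pre-rRNA processing RNAs none passed the edgeR test in any comparison. Both Rmrp rows are among them, so the 5 rows stand for fewer than 5 separate RNAs. For KO against Het, 1 was above and 4 were below 0 in M2 eggs (median log2 fold change -0.14, against -0.02 for all rows tested). At PN5 4 were above and 1 below (median 1.64, against 0), and at the early 2-cell stage again 4 were above and 1 below (median 0.84, against 0). Of 22 rows of the small-subunit processome, the complex that assembles on the 18S end of the precursor, 12 had counts, 2024 in all. Wdr43 held 792, Bms1 held 611 in 4 libraries and Nop58 held 233. The 5 tested members had a median log2 fold change for KO against Het of 1.29 in M2 eggs, -0.70 at PN5 and -0.13 at the early 2-cell stage, and 0 of them passed.

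The RNA polymerase I list, with its subunits and initiation factors, had counts in 8 of 23 rows, 163 in all. Taf1d, a subunit of the selectivity factor, held 80, Smarca5, a chromatin remodeller of rRNA genes, 33 and Cd3eap, a polymerase I subunit, 15. Of 15 rows for the bait and for assembly of the large subunit 5 had counts, 368 in all. Las1l, which helps cut the spacer beside 28S, held 169, Nvl, an assembly ATPase, 111 and Rrs1, which brings in the 5S particle, 43. Rpl22 itself and the 5S-binding proteins Rpl5 and Rpl11 had 0 counts in every library. This allows up to 0.363 CPM over all libraries together and up to 32.2 in the shallowest library. Both limits are on a library total that is mostly rRNA, and they are far higher among mRNA reads. In each of these lists 1 row was deep enough to test, and 0 passed.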

How the data were processed

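Ribosome-protected fragments were measured in 15 libraries. The table that the authors deposited holds whole numbers, read as rounded estimated counts and not scaled between libraries. The submitters' processing notes name STAR 2.7.6a, StringTie 2.1.4, cutadapt and deepTools 3.5.1, and the build GRCm38. The sources used here do not say how rRNA reads, or reads matching several genes, were counted, so levels of different rRNA rows are not compared as molecules. Shares are percentages of each library's total. Groups came from the labels. Measures were compared on the log2 scale by two-sided exact permutation tests over libraries (scipy 1.17.1), and correlations by 100000 permutations, or exactly for 6 libraries. All rows passing filterByExpr (minimum count 10) were fitted with edgeR 4.0.16 (R 4.3.3, TMM, robust quasi-likelihood, 6 group means), and called at a Benjamini-Hochberg adjusted p of 0.05. Each SE is the size of the fold change divided by the square root of its F statistic. Alternatives used DESeq2 1.42.0 and limma-voom 3.58.1, other scalings, filters and measures, and left out each library. Named rows were the 3 rRNA rows, for each the 3 most alike by Pearson r, and up to 3 members with most counts of each list. The rRNA rows, the gene lists and the tests were chosen with earlier results of these data known. RefSeq annotation (GRCm38.p6) gave lengths and biotypes for 39266 rows matched by symbol. The rows with no match took 0.132% to 1.91% of a library, the rRNA rows aside. Replicate numbers gave no sign of pairing the libraries: deviations from the group means correlated at -0.357 to 0.0880 in 7 same-numbered pairs. With 2 libraries in a group, both M2 pairs take the same value by construction, so this check is weak and cannot exclude pairing. Nothing in the labels ties a number to a female or a day.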

Additional observations from a re-analysis of the deposited data

How the results depend on the processing

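None of the 45 tests of rRNA measures passed an adjusted p of 0.05 in the main setting or in any of the 21 alternatives, where the smallest adjusted p was 0.833. The design left little room for a pass. In the main setting the smallest possible p was 0.000833 for KO against Het within stages. It was 0.005 to 0.0167 between stages and 0.1 or 0.333 at single stages, where no test could pass by itself after adjustment over 45. These limits rise where a library of the comparison is left out. Signs of differences that did not pass often turned, and the cause was not tested; the values that follow are log2 differences unless said. Without the third replicates, KO minus Het was 0.00172 for the 28S share within stages, and for the 28S to 18S ratio 0.0294 at PN5 and -0.0268 in early 2-cell embryos. That ratio then differed by 0.0274 between early 2-cell and PN5 and its KO effect by -0.0562 between them, and 5.8S to 28S differed by 0.270 between PN5 and M2. Between PN5 and M2 the 28S share differed by 0.00950 as a share of counts without mitochondrial rRNA and by 0.00712 within cytosolic rRNA alone. With group medians, KO minus Het within stages was -0.261 for the 18S share and 0.112 for the 28S to 18S ratio. Medians gave that ratio 0.516 at PN5 and -0.0828 for the difference of KO effects between early 2-cell and PN5, and gave 5.8S to 28S 0.227 between PN5 and M2. On untransformed values the ratio was higher in KO by 28.9 at PN5, and its KO effect differed by -7.67 between early 2-cell and PN5.

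The replicate numbers gave no sign of pairing in the weak check described with the processing. With the replicate block, the 28S to 18S ratio was -0.0268 for KO minus Het in early 2-cell embryos, 5.8S to 28S was -0.0112 within stages, and edgeR's log2 fold changes were 0.0940 for 28S in M2 eggs and -0.644 for 18S at PN5. The block called 0 rows for KO against Het at each stage, with 3, 9 and 3 rows under an unadjusted p of 0.05. The M2 correlation of -0.123 led to a block with crossed numbers, added after seeing the data, which also called 0 rows, with 4 under an unadjusted p of 0.05.

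In the fit over all rows, 28S for KO against Het in M2 eggs was 0.0684 with TMM computed without rRNA, 0.0451 with no filter on low counts and 0.0833 in limma-voom. 18S at PN5 was -0.583 in limma-voom. In early 2-cell embryos 28S was 0.0434 and 5.8S 0.0854 with library totals only, and 0.0376 and 0.102 in limma-voom. The DESeq2 and limma-voom counts are given with the comparisons: 2, 2 and 4 rows for KO against Het, 4 and 40 for the stages in Het, 1 and 13 in KO, and 11 in limma-voom for early 2-cell against PN5 in Het. With no filter edgeR called 1 row for KO against Het at the early 2-cell stage, 3 and 1 rows for early 2-cell against PN5 in Het and KO, and 2 for the difference of KO effects between these stages.

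Leaving out each library in turn moved KO minus Het within stages between -0.0638 and 0.00263 for the 28S share, -0.279 and 0.585 for 18S, -0.648 and 0.265 for the 28S to 18S ratio and -0.0749 and 0.193 for 5.8S to 28S. For the 28S to 18S ratio the range was -1.98 to 0.757 in M2, -0.867 to 0.959 at PN5 and -0.164 to 0.541 in early 2-cell embryos, -0.907 to 1.83 for the KO effect at PN5 minus M2 and -0.771 to 1.06 for early 2-cell minus PN5. Between early 2-cell and M2 it was -0.0107 to 0.0636 for 28S, -1.02 to 0.280 for 18S and -0.291 to 1.08 for the ratio. For 5.8S to 28S it was -0.244 to 0.159 between PN5 and M2 and -0.343 to 0.0590 between early 2-cell and PN5, or -0.403 without the third replicates. For the 28S to 18S ratio between early 2-cell and PN5 the lowest was -1.16, and no single library turned its sign. In the fit, KO against Het ranged from -0.678 to 1.24 for 28S and -0.411 to 1.82 for 5.8S in M2, from -1.38 to 0.497 for 18S at PN5, and in early 2-cell embryos from -0.622 to 0.349 for 28S, -0.786 to 0.250 for 18S and -0.704 to 0.344 for 5.8S. Rows called ranged from 0 to 8 for KO against Het at PN5, 0 to 1 in early 2-cell embryos, 0 to 4 and 0 to 32 for the stages in Het, 0 to 1 and 0 to 3 in KO, and 0 to 4 and 0 to 2 for the differences of KO effects.

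Of the rRNA rows 0 to 1 was called. The 28S row passed for early 2-cell against PN5 in Het without M2 KO replicate 1 (log2 fold change -1.53, adjusted p = 0.0306 in edgeR), early 2-cell KO replicate 1 (-1.52, adjusted p = 0.0286) or early 2-cell KO replicate 2 (-1.48, adjusted p = 0.0312). None of these libraries belongs to either group compared, and each leaves a group with 1 library, so the filter admits 1058, 1024 and 1044 rows in place of 495. The median log2 fold change of all rows tested was then -2.15, -2.10 and -2.11, against -1.90 with every library, and on library totals alone 28S was 0.08 in this comparison. Leaving out M2 Het replicate 1, M2 Het replicate 2 or M2 KO replicate 2 also left a group with 1 library. The filter admitted 967, 873 and 839 rows in these fits, and 28S was -1.15, -1.10 and -1.10 without being called. Why the calls differ was not tested. The counting error of the 18S row follows its count, 243 to 8817 in a library, which depends on its share as well as on depth.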

Other observations

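A row named only CT010467.1, for which no role is given in the sources used here, was as abundant as 18S. It took 0.0501% to 1.76% of a library, with the highest share in PN5 KO replicate 2, the library with the highest 18S share, and the lowest in PN5 KO replicate 3. Its count was 0.0797 to 3.47 times that of 18S, and the source of this spread was not tested. In PN5 Het replicate 3, which had the highest 28S to 18S ratio, it held 2618 counts against 755 in 18S. Reads that it may share with the rRNA rows were not examined. The 18S share and the 28S to 18S ratio could depend on such reads. In M2 eggs CT010467.1 took 0.0791% and 0.0944% in Het and 1.34% and 0.629% in KO. At PN5 it took 0.146%, 0.437% and 0.348% in Het and 0.0717%, 1.76% and 0.0501% in KO, and in early 2-cell embryos 0.572%, 0.449% and 0.398% in Het and 1.02% and 0.116% in KO. KO lay above Het in M2 eggs and overlapped or straddled it at the other stages. The order in M2 was not tested by itself. With 2 libraries on each side the smallest possible exact permutation p is 0.333. The edgeR fit over all rows called 0 rows for KO against Het in M2 eggs.

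Mir6236, chosen after its values were seen, is annotated as a microRNA gene and had counts in each of the 15 libraries, 7251 in all. It took 0.0234% of PN5 Het replicate 3 and 0.272% of early 2-cell Het replicate 2, with a median of 0.0953%. Its mature sequence from RefSeq (GRCm38.p6, chr9:110281353-110281371, plus strand) is shown to identify the row, with the seed, bases 2 to 8, in capitals.
mmu-miR-6236: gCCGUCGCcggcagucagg
Reads that this row may share with other RNAs were not examined.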
